A study of Mus musculus with 12 samples.

Results

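The genes described here are the digestive enzymes, secretory granule proteins and regulators of pancreatic acinar cells, followed across 9 orthotopic pancreatic tumours. A list of 39 such genes was matched by gene symbol to the probe annotation of the array, which found 36 of the 19057 gene symbols on the array, read by 50 of its 45281 probes (Spink3 through its current RefSeq symbol, Spink1). The tumours grew in adult female C57BL/6J mice after syngeneic pancreatic ductal adenocarcinoma cell lines in Matrigel had been placed surgically in the pancreas. Once tumours were established, mice were fed chow with vehicle (Vehicle, 4 tumours) or with a drug that blocks the receptor for colony-stimulating factor 1 (CSF1Ri, 5 tumours) for 8 days. All animals were perfused with heparinised saline and all tumours were digested with collagenase before total RNA was taken from the whole tissue. The sources used here do not name the compound, its dose or the number of tumour cell lines. Vehicle 1, Vehicle 3 and CSF1Ri 1 were hybridised to the arrays again, and their arrays were averaged, so that 12 arrays gave 9 tumours.

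Acinar cells make up most of the exocrine pancreas. They package digestive enzymes, most of them as inactive precursors, into zymogen granules and release them into the duct when cholecystokinin or acetylcholine arrives. Their identity is held by the transcription factor complex PTF1, in which Ptf1a pairs with a common E protein and with Rbpjl and binds an E-box and a neighbouring TC-box, together with Nr5a2 and Bhlha15 (Mist1). In pancreatic injury and around pancreatic tumours acinar cells can lose this programme and take on duct-like features.

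The promoters of 5 of the genes are shown because PTF1 is known for acting at E-boxes. All 5 hold the E-box CACCTG, which only 19 of the 31 listed genes with a window did. Rbpjl, among the 5, did not follow the common order of the tumours given below. The windows shown are the 250 bases before the gene start in RefSeq's GRCm38.p6 annotation, read 5′ to 3′ on the strand of the gene. Capitals mark every E-box CACCTG and TC-box TTTCCC on either strand and every TATA box TATAAA on the strand of the gene. The windows lie at chr15:100687921-100688170, minus strand (Cela1, elastase 1), chr2:28563404-28563653, minus strand (Cel, bile salt-dependent lipase), chr4:137430521-137430770, minus strand (Cela3b, elastase 3B), chr6:41302022-41302271, plus strand (Try4, a trypsinogen) and chr2:164402944-164403193, plus strand (Rbpjl).
Cela1: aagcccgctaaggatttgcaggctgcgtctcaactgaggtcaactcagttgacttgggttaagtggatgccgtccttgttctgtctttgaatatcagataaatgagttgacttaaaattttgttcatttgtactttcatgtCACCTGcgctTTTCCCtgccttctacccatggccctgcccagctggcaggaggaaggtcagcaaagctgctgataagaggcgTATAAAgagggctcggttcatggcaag
Cel: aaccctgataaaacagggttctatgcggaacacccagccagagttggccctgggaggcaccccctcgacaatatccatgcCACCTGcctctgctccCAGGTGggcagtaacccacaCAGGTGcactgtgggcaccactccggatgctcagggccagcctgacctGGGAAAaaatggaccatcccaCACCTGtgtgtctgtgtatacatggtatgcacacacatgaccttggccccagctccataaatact
Cela3b: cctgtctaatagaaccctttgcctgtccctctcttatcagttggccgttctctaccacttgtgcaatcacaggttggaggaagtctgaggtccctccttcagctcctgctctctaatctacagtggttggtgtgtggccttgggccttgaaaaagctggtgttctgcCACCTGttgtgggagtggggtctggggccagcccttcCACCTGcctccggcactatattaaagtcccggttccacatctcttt
Try4: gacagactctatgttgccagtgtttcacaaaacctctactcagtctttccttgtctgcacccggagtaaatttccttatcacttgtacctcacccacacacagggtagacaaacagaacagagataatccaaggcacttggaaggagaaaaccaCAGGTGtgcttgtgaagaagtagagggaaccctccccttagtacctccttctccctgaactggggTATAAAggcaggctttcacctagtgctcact
Rbpjl: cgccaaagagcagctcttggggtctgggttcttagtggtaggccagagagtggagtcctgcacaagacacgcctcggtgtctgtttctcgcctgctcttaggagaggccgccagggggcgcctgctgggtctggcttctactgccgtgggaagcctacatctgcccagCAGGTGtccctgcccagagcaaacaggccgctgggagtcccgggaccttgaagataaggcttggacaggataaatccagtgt
In the Cela1 window the E-box began 109 bases before the start and the TC-box 99 bases before it, both on the strand of the gene. RefSeq promoter windows were found for 31 of the 39 listed genes, 24 of them tested on the array and 7 not, among them Prss1, Pnlip and Tmed6, which have no probe. Of the 31, 19 (61.3%) held CACCTG, against 19.4% of the 27025 genes with a window, and of the 24 tested genes 14 (58.3%) did. TTTCCC was in 7 of the 31 (22.6%) against 24.4% of all genes, and both motifs with starts at most 40 bases apart were in 3 of the 31 (9.68%, Cel, Prss1 and Cela1) against 1.31% of all genes. TATAAA was in 9 of the 31 (29%) against 8.94% of all genes. An E-box and a TC-box can share at most 1 end base. These matches describe the windows only, and binding was not measured.

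Of the 36 genes with a probe, 31 had a probe detected in at least 4 tumours and were tested with the other genes, 9788 in all. Detected here means a detection p-value under 0.05 on every array of the tumour. Only dim probes reported Amy1, Serpini2, Gatm, Cckar and Nr5a2, and Prss1, Pnlip and Tmed6 had no probe under their symbol, so their levels were not analysed here. Between 16219 and 17847 probes were detected per array. Values are normalised log2 intensities, and where a gene has several kept probes the brightest stands for it. Log2 fold changes are the CSF1Ri mean less the Vehicle mean, each with its moderated standard error (SE), and p-values are from limma with Benjamini-Hochberg adjustment over the 9788 genes.

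The acinar genes varied widely between tumours of the same group, and they did so together. CSF1Ri 1 was the lowest of the 9 tumours for 29 of the 31 genes, and CSF1Ri 5, from the same group, was the highest of the 9 for 19 of them. Within the CSF1Ri group the order from low to high was CSF1Ri 1, 4, 3, 2 and 5 for 28 genes, the exceptions being Prss3, Rbpjl and Bhlha15. Vehicle 4 was the lowest Vehicle tumour for 30 genes, all but Amy2a5. The 50 probes together gave 2.53% of the summed deposited intensity of the array in CSF1Ri 5, 2.01% in Vehicle 2, 1.74% in Vehicle 3, 1.46% in Vehicle 1, 0.906% in CSF1Ri 2, 0.582% in Vehicle 4, 0.511% in CSF1Ri 3, 0.159% in CSF1Ri 4 and 0.00983% in CSF1Ri 1. In whole tissue, fewer acinar cells and less RNA per acinar cell cannot be told apart.

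**Figure D1:**
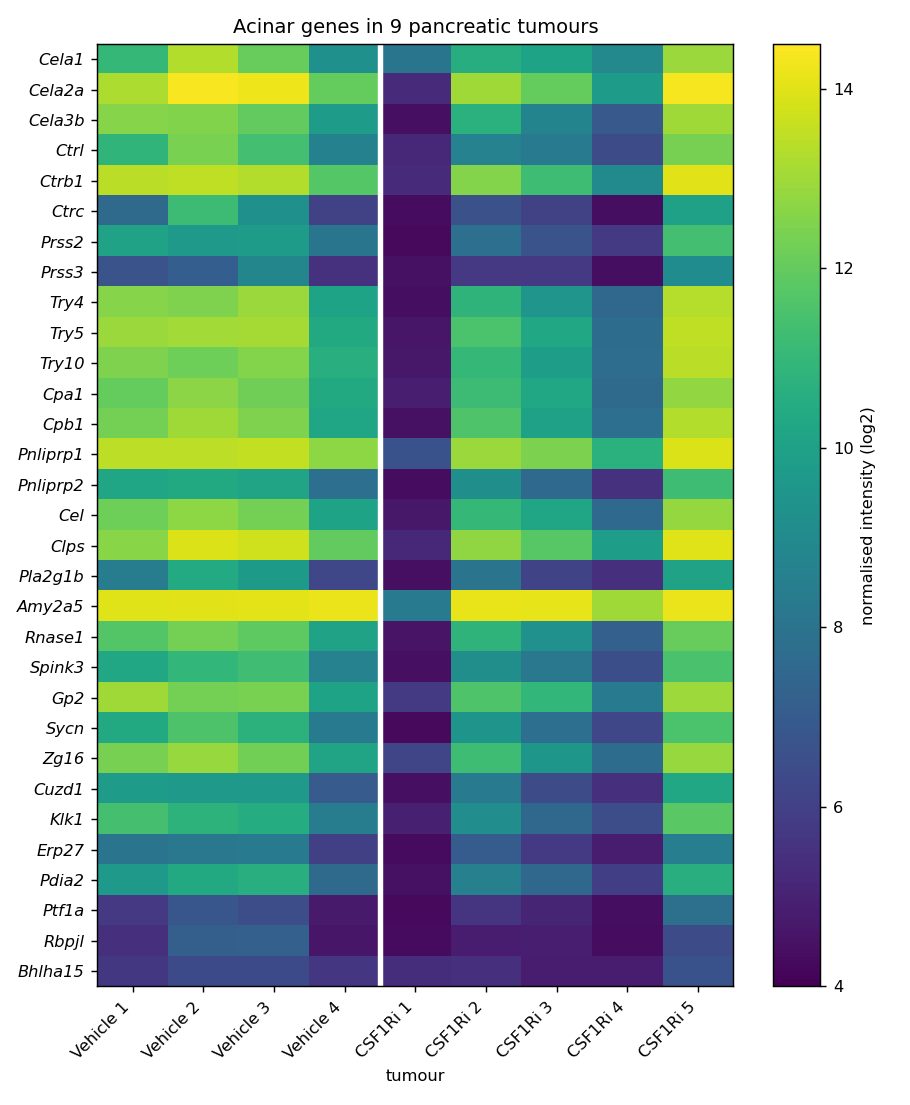
Normalised log2 intensity (colour) of the 31 tested acinar genes (rows, by role) in the 4 Vehicle and 5 CSF1Ri tumours (columns, white line between groups). CSF1Ri 1 is dark in nearly every row, CSF1Ri 5 is as bright as the brightest Vehicle tumours, and Vehicle 4 is the darkest Vehicle tumour.

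The trypsinogens, precursors of the protease that activates the other zymogens, ran from a bright signal in some tumours to no detected signal in another. Try4 read 12.59, 12.46, 12.91 and 10.10 in Vehicle 1 to 4, and 4.41, 10.81, 9.49, 7.52 and 13.34 in CSF1Ri 1 to 5. Every Vehicle tumour therefore lay between CSF1Ri 4 and CSF1Ri 5, and the groups overlapped. Its log2 fold change was -2.90 (SE 1.48, adjusted p = 0.725), with a 95% interval from -6.18 to 0.38. Try5 (-2.84), Try10 (-2.60), Prss2 (-2.20) and Prss3 (-1.15) ran the same way without passing the test. Probe sequences were not used here, and since the trypsinogen genes are closely related copies, how far each probe reads its neighbours was not tested.

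Among the elastases and chymotrypsins, which cleave dietary protein after activation by trypsin, Cela3b had the largest log2 fold change of the 31 genes. It read 12.58, 12.49, 11.97 and 9.75 in Vehicle 1 to 4, and 4.44, 10.71, 8.75, 6.93 and 13.003 in CSF1Ri 1 to 5. CSF1Ri 5 exceeded all Vehicle tumours and CSF1Ri 1 was at the floor. The difference of the means was -2.93 (SE 1.46, adjusted p = 0.714). The SD was 1.32 within the Vehicle group and 3.31 within the CSF1Ri group, and 2.65 when pooled. Ctrb1, chymotrypsinogen B, ranged from 14.03 in CSF1Ri 5 to 5.28 in CSF1Ri 1, and Cela2a, elastase 2A, from 14.40 in Vehicle 2 to 5.29 in CSF1Ri 1.

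Cela1, elastase 1, had a smaller range over the tumours than the other elastases. It read 11.004, 13.31, 12.08 and 9.27 in Vehicle 1 to 4, and 8.07, 10.55, 10.09, 8.93 and 12.93 in CSF1Ri 1 to 5. The arrays of CSF1Ri 1 gave 8.22 and 7.93, and it was among the 12 genes detected on both. Its range was 5.23 log2 units against 8.57 for Cela3b and 9.10 for Cela2a. The log2 fold change of Cela1 was -1.30 (SE 0.99, adjusted p = 0.888).

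Ctrc, chymotrypsin C, which degrades and regulates trypsinogen, separated tumours that the trypsinogens did not. It read 7.64, 11.21, 9.28 and 6.08 in Vehicle 1 to 4, and 4.35, 6.60, 6.03, 4.37 and 10.01 in CSF1Ri 1 to 5. Vehicle 2 was thus 3.57 log2 units above Vehicle 1, where the repeated arrays of Vehicle 1 gave 7.58 and 7.70 and differed by 0.11. Between the same tumours Try4 differed by -0.13. In all, 9 genes were more than 1 log2 unit higher in Vehicle 2 than in Vehicle 1 (1.08 to 3.57), namely Cela1, Cela2a, Ctrl, Ctrc, Clps, Pla2g1b, Sycn, Ptf1a and Rbpjl, and the other 22 lay between -0.69 and 0.69. These 9 were picked out after their values were seen, and the difference rests on 1 tumour on each side.

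**Figure D2:**
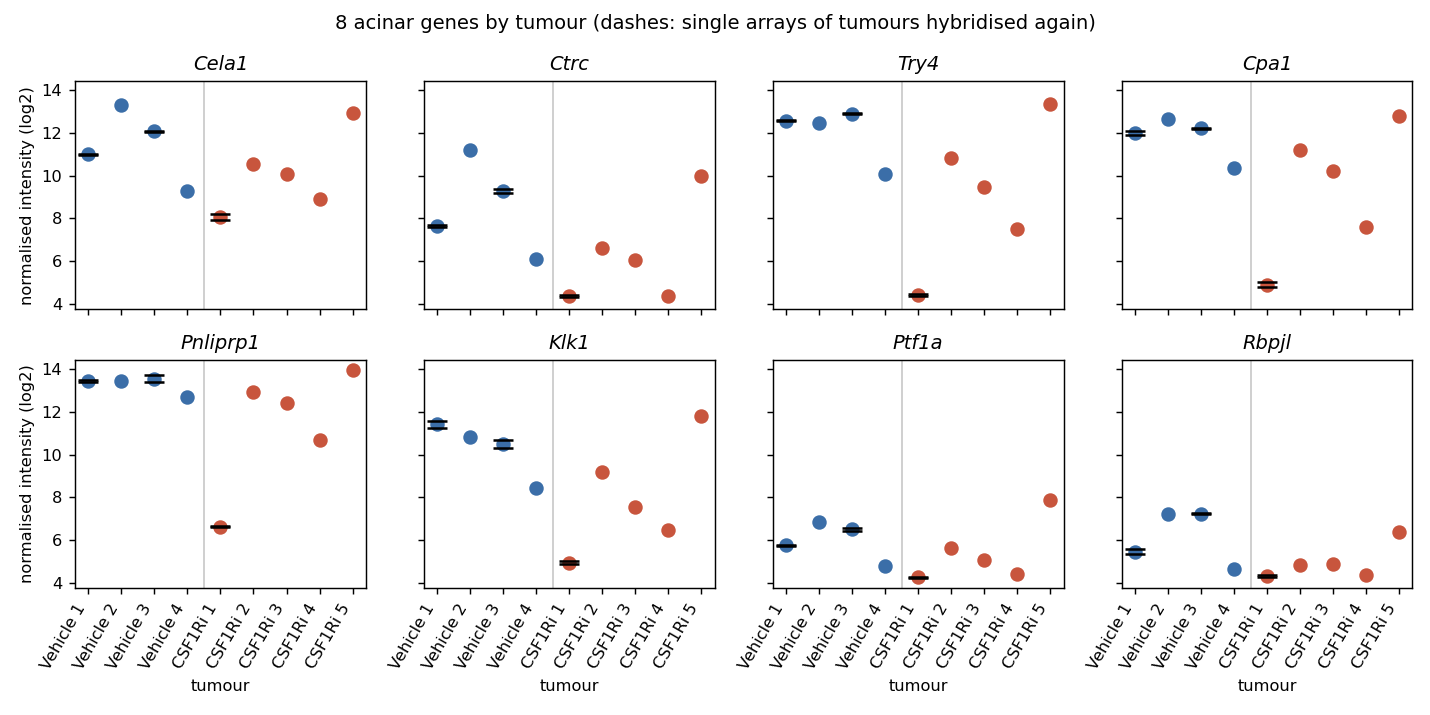
Normalised log2 intensity of 8 acinar genes (panels) in the 4 Vehicle (blue) and 5 CSF1Ri (red) tumours; a point is a tumour, and dashes are the single arrays of the 3 tumours hybridised again. The dashes lie close to their points while the tumours of a group spread over several log2 units, and the groups overlap in all 8 panels.

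The procarboxypeptidases, which trim peptides from the carboxyl end, followed the common order. Cpa1 read 12.003, 12.67, 12.23 and 10.38 in Vehicle 1 to 4, and 4.89, 11.19, 10.25, 7.61 and 12.78 in CSF1Ri 1 to 5 (log2 fold change -2.48, SE 1.35, adjusted p = 0.761). CSF1Ri 1 and CSF1Ri 4 lay below all Vehicle tumours, as they did for each of the 31 genes by its brightest probe. CSF1Ri 2 lay above the lowest Vehicle tumour for 29 of them. Cpb1 had a log2 fold change of -2.56 and was not detected on either array of CSF1Ri 1.

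Lipid-digesting enzymes showed the same order. Pnliprp1, a lipase-related protein, read 13.47, 13.46, 13.54 and 12.71 in Vehicle 1 to 4, and 6.63, 12.94, 12.43, 10.70 and 13.95 in CSF1Ri 1 to 5, so that its Vehicle SD was only 0.39 and its CSF1Ri SD 2.88. Cel, whose promoter above held 4 E-boxes, had a range of 8.14 log2 units (log2 fold change -2.56, adjusted p = 0.761). The colipase gene Clps, with a cofactor that anchors lipase on fat droplets, gave -2.36 by both of its kept probes. For Pnliprp2 the kept probes gave -2.05 and -1.93, and for the phospholipase gene Pla2g1b the value was -1.87.

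Amylase digests starch, and its 3 Amy2a5 probes disagreed in size. The brightest read 13.98, 14.02, 14.07 and 14.19 in Vehicle 1 to 4, and 8.27, 14.16, 14.10, 12.997 and 14.17 in CSF1Ri 1 to 5. It ranked between 30 and 66 by deposited intensity on 9 of the 12 arrays with little movement among them, and it ranked 201 in CSF1Ri 4 and 5131 and 5062 on the arrays of CSF1Ri 1. The next probe read 13.46, 13.57, 12.75 and 11.85 in Vehicle tumours, and 4.80, 12.82, 11.26, 8.58 and 14.08 in CSF1Ri tumours, which is the order of the other enzymes. The log2 fold changes of the 3 probes were -1.32, -2.60 and -2.05, none with an adjusted p under 0.05 over all kept probes (0.899, 0.807 and 0.829). Whether the brightest probe was near its ceiling was not tested. Rnase1, the pancreatic ribonuclease, had the smallest p of the 31 genes (log2 fold change -2.69, SE 1.29, adjusted p = 0.697). The Amy1 probes, for the amylase form of salivary gland and liver, were detected on 1 and 2 of 12 arrays.

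Granule, inhibitor and receptor genes were split by detection. Spink3, the trypsin inhibitor of the granule, read 10.29, 10.95, 11.28 and 8.64 in Vehicle 1 to 4, and 4.42, 9.19, 8.21, 6.54 and 11.47 in CSF1Ri 1 to 5, the same order within the CSF1Ri group as Try4 (log2 fold change -2.32, adjusted p = 0.725). Gp2, the main glycoprotein of the granule membrane, was -2.03, the granule lectin gene Zg16 -2.41, the syncollin gene Sycn -2.40, and Cuzd1, another zymogen granule protein, -2.06, each without passing the test. Klk1, tissue kallikrein, read 11.41, 10.81, 10.49 and 8.43 in Vehicle tumours, and 4.93, 9.16, 7.56, 6.46 and 11.82 in CSF1Ri tumours (-2.30, adjusted p = 0.735). Of the endoplasmic reticulum proteins, the disulphide isomerase gene Pdia2 was at -2.16 and Erp27 at -1.54. Cckar, the cholecystokinin receptor, Gatm, the first enzyme of creatine synthesis, and the inhibitor gene Serpini2 were detected on 0 of 12 arrays.

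The acinar transcription factors were dim but ran in the same direction. Ptf1a read 5.74, 6.82, 6.49 and 4.76 in Vehicle 1 to 4, and 4.25, 5.60, 5.07, 4.38 and 7.87 in CSF1Ri 1 to 5, with CSF1Ri 5 more than 1 unit above every other tumour. It was detected on 8 of 12 arrays, and its log2 fold change was -0.52 (SE 0.70, adjusted p = 0.960). Rbpjl read 5.45, 7.19, 7.23 and 4.64 in Vehicle tumours, and 4.30, 4.84, 4.87, 4.34 and 6.39 in CSF1Ri tumours, and was detected on 7 arrays (-1.18, SE 0.59, adjusted p = 0.714). For Rbpjl, Vehicle 2 and Vehicle 3 therefore exceeded CSF1Ri 5, the reverse of Ptf1a. Bhlha15, which drives granule maturation, read 5.72, 6.38, 6.36 and 5.66 against 5.39, 5.47, 4.83, 4.83 and 6.65. Its range of 1.82 log2 units was the smallest of the 31. The other kept Bhlha15 probe read 5.38, 6.45, 6.11 and 4.88 against 5.08, 4.96, 4.97, 4.50 and 6.05. By that probe CSF1Ri 1 lay above Vehicle 4, and Vehicle 2 and Vehicle 3 lay above CSF1Ri 5. The 3 Nr5a2 probes were detected on 0, 0 and 1 arrays. Near the floor the added offset compresses differences, so the smaller ranges of these genes cannot be set against those of the enzymes.

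CSF1Ri 1 had little acinar signal on either of its arrays. Of the 31 genes, 18 were detected on neither array (4.25 to 4.69), 1 (Try10) on 1 array, and 12 on both (4.89 to 8.27). The 12 were Cela1, Cela2a, Ctrl, Ctrb1, Cpa1, Pnliprp1, Clps, Amy2a5, Gp2, Zg16, Klk1 and Bhlha15, which were also the 12 detected on all arrays. The repeated arrays of CSF1Ri 1 differed by a median of 0.08 log2 units over the 31 genes, those of Vehicle 1 by 0.09 and those of Vehicle 3 by 0.12. The largest difference between repeats was 0.91, for Prss2 in Vehicle 3, while the median range between tumours was 7.07. The number of probes detected in CSF1Ri 1 (16519 and 17251) lay within the range of the other arrays.

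Few genes varied as much. The pooled within-group SD had a median of 2.24 log2 units over the 31 acinar genes and of 0.23 over all 9788 genes, whose 99th percentile was 0.98. By this SD, acinar genes took 7 of the first 10 places among all genes, 27 of the first 50 and 30 of the first 100, with Bhlha15 at place 353. Without CSF1Ri 1 the median SD of the acinar genes was 1.73, and 25 stood among the first 50.

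**Figure D3:**
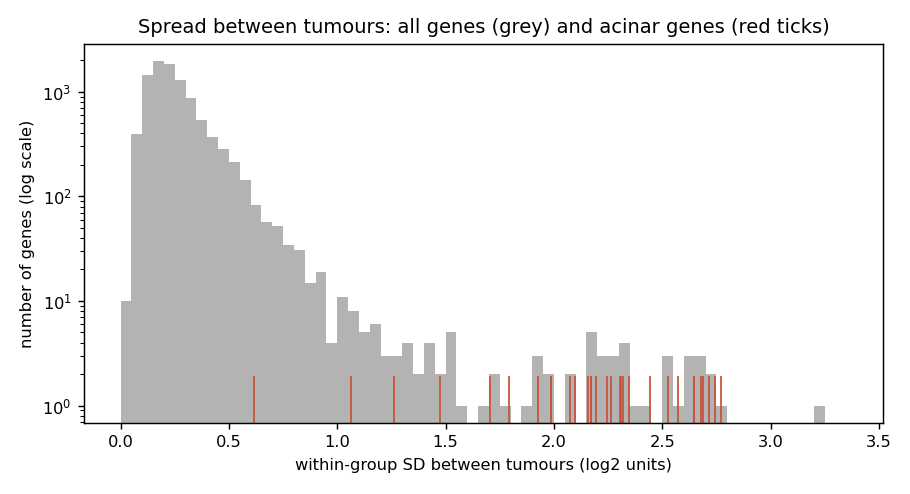
Number of genes (log scale) by their within-group SD between tumours in log2 units, for all 9788 genes (grey bars), with the 31 acinar genes as red ticks. Most acinar genes lie beyond 1.5, where few other genes are found.

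Against that spread, no acinar gene passed the test of CSF1Ri against Vehicle tumours. Of the 31 tested genes, 0 passed an adjusted p of 0.05 (limma), where 0.215% of all tested genes did, all lower in CSF1Ri, and 0 had an unadjusted p under 0.05, where 7.53% of all did. All 31 log2 fold changes were negative, between -2.93 and -0.52 with a median of -2.30, against 47% of all genes below 0 and a median of 0.01. All 31 intervals included 0, with upper ends from 0.12 to 1.03 and lower ends from -6.18 to -1.37, so neither a large fall nor a small rise could be told from no change with 4 and 5 tumours. The groups overlapped for 31 of 31 genes, while they were apart for 2.88% of all genes.

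The size of the difference depended on single tumours at the ends of the CSF1Ri group. Without CSF1Ri 1 the median log2 fold change of the acinar genes was -1.36 and 0 genes had an unadjusted p under 0.05. Without CSF1Ri 5 it was -3.21, and 30 of the 31 genes had an unadjusted p under 0.05, though 0 passed after adjustment (smallest adjusted p = 0.260). CSF1Ri 5 was the highest of its group for all 31 genes, so a larger difference without it was fixed in advance. The 6 dimmer arrays held 3 against 3 tumours. Vehicle 4, CSF1Ri 4 and CSF1Ri 5 were not among them and were measured on brighter arrays only. Within the dimmer arrays the median was -3.505, with 25 genes at an unadjusted p under 0.05 and 0 after adjustment. Within the 6 brighter arrays the median was -2.47, with 0 genes by either measure. The share of all genes at an unadjusted p under 0.05 is not given for these fits. Since the acinar genes move together, these counts are not read as separate results.

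**Figure D4:**
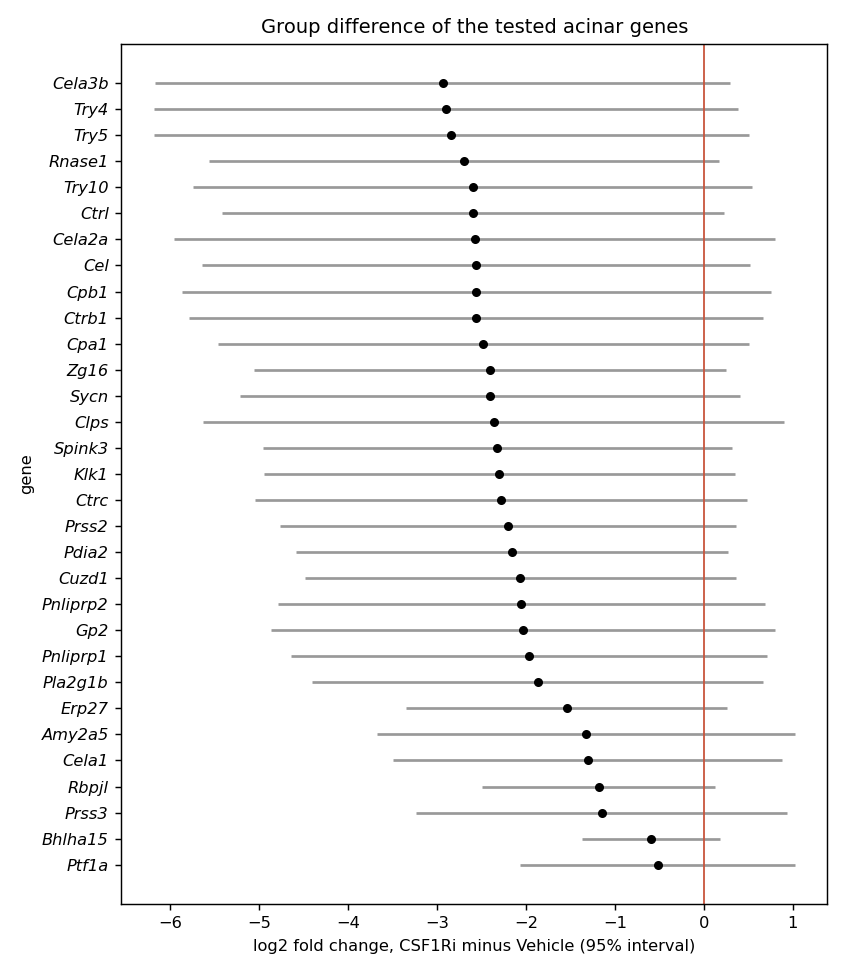
Log2 fold change, CSF1Ri minus Vehicle, of the 31 tested acinar genes (points) with 95% intervals from limma (bars); the red line marks no change. All points lie left of the line and all intervals cross it.

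Other pancreatic genes gave a further view of the same tumours. Of 25 other genes of acinar cells, 13 were tested and 0 passed after adjustment, with a median log2 fold change of -0.32. The first by p were Tmem97 (-0.42, adjusted p = 0.457), the amino acid transporter gene Slc7a8 (-0.45), Fkbp11 (-0.32) and the acinar water channel gene Aqp12 (-0.91). Aqp12 read 5.89, 6.33, 5.98 and 4.51 in Vehicle tumours, and 4.26, 4.61, 4.33, 4.32 and 6.33 in CSF1Ri tumours. Within the CSF1Ri group Tmem97 and Aqp12 kept the acinar order, while Slc7a8 and Fkbp11 did not. The lowest log2 fold changes of the 13 were those of Reg2 (-2.48, adjusted p = 0.806) and Reg1 (-1.31, adjusted p = 0.861), which also kept the acinar order. Of the 13 genes, 9 had a negative log2 fold change. The mean of the 13 genes ran from 8.19 to 8.69 in Vehicle and from 7.25 to 8.70 in CSF1Ri tumours. The 14 tested genes of the machinery of regulated exocytosis, which many cell types share, had a mean between 8.74 and 8.94 in every tumour. For the 15 tested genes of secretory pathway regulation the mean lay between 7.53 and 7.97. Examples are Vamp2 (0.27), Snap29 (-0.24), Tcf3, an E protein partner of Ptf1a (-0.40), and Xbp1, the regulator of secretory capacity (0.15), none past the test after adjustment.

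The mean of the islet genes did not share the acinar order. Islets lie within the acinar tissue of the pancreas, and 10 of 20 islet genes were tested, with a list mean of 6.03 to 7.02 in Vehicle and 5.90 to 7.51 in CSF1Ri tumours. Ins2, an insulin gene, read 10.23, 11.96, 12.98 and 11.62 in Vehicle 1 to 4, and 11.65, 11.50, 12.81, 10.82 and 11.90 in CSF1Ri 1 to 5. CSF1Ri 1, where the trypsinogens were at the floor, was thus in the middle of the tumours for Ins2, and for the glucagon gene Gcg it was the second highest (9.60, after 10.28 in CSF1Ri 3). The somatostatin gene Sst shared part of the acinar order. It was lowest in CSF1Ri 1 (5.46) and next in CSF1Ri 4 (5.52), but highest in CSF1Ri 3 (7.48), with CSF1Ri 5 at 6.26. Of the islet genes, 0 passed the test, and the first by p were G6pc2 (0.41), Chgb (0.44), Sst (-0.42) and Chga (-0.21).

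Genes of duct and tumour epithelium had list means of 9.66 to 10.30 in Vehicle and 9.83 to 10.42 in CSF1Ri tumours over 13 tested genes, and 0 passed the test. Cldn4 was at 0.82 (adjusted p = 0.618), Cftr, the chloride channel of duct cells, at 0.91 and was highest in CSF1Ri 3 (8.68 against at most 6.74 elsewhere), the duct factor gene Sox9 at 0.18 and Krt19 at 0.16. Macrophages depend on the targeted receptor. Of 15 tested macrophage genes, 4 passed after adjustment (Cx3cr1, Mrc1, Ms4a7 and Csf1r), all lower in CSF1Ri tumours, against 0.215% of all tested genes. Of the 15, 13 had a negative log2 fold change. The list means were 7.86 to 8.43 in Vehicle and 6.75 to 7.53 in CSF1Ri tumours and did not overlap. Among all single genes, the groups were apart for 2.88%. In CSF1Ri 1 and CSF1Ri 5, the ends of the acinar range, the macrophage means were 7.32 and 6.94, and Cx3cr1 read 4.62 and 4.56 against 7.14 to 7.39 in Vehicle tumours. The part of tissue composition in the acinar values was not tested.

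**Figure D5:**
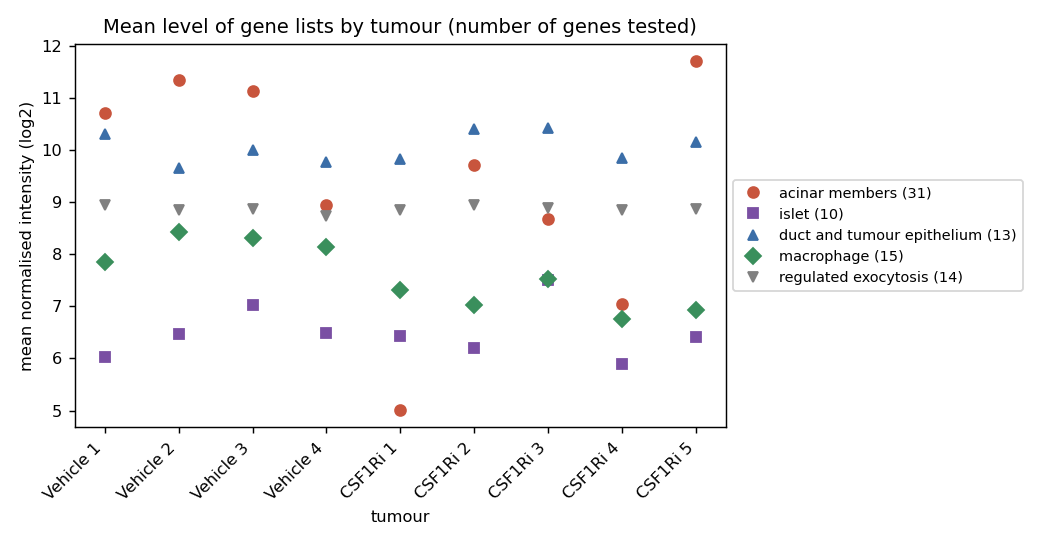
Mean normalised log2 intensity of 5 gene lists (symbols, number of genes tested in brackets) in each tumour. The acinar mean runs from 5.01 in CSF1Ri 1 to 11.70 in CSF1Ri 5, while the islet, duct and exocytosis means span less. The macrophage mean separates the groups. Several islet genes are near the floor, which compresses the range of the islet mean. The brighter islet genes Ins2 and Gcg have ranges of 2.74 and 2.65 log2 units.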

How the data were processed

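Whole tumours were measured on Illumina BeadArrays. For 12 arrays and 45281 probes, the deposited table pairs each intensity with a detection p-value, per the file headers, and another deposited table holds processed intensity. The deposited intensity falls below 0, so background had been subtracted, and it was not scaled between arrays. Each processed column equals the unscaled one times 1 factor (0.672 to 1.49). The sources used here name no software for this step.

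Intensities were processed with neqc in limma 3.58.1 (R 4.3.3), which uses the detection p-values, adds 16, applies quantile normalization and takes log2. Of 16606 kept probes, 14378 had 1 gene symbol and gave 9788 genes. In the annotation, 34885 probes had 1 symbol, 18 several and 10378 none. The RefSeq gene table changed 0 symbols. Groups were compared with limma (lmFit, eBayes) without covariates, after a check on simulated data. The gene names in the text were chosen as all listed genes, up to 4 genes of each other list with the smallest p, and the 10 other genes with the largest within-group SD. Ins2 and Gcg were named in addition as islet markers, and Reg1 for its log2 fold change. The listed genes and the other lists were chosen with earlier results of these data known. The titles number tumours within each group. The deviations of same-numbered tumours from their group means correlated over genes at -0.09, 0.03, 0.12 and 0.34 for numbers 1 to 4. Not every pair was above 0.1, so the numbers were not taken as pairs. Nothing says whether the tumours came from separate experiments, and p-values measure the spread between these tumours, whose number limits the precision.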

Additional observations from a re-analysis of the deposited data

Results flagged for a closer look

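In 11 of 62 groups of acinar gene values (31 genes, Vehicle and CSF1Ri), 1 tumour lay far from the others by Dixon's test. Chance gives about 1 in 20, and since these genes move together the 11 are not independent. Vehicle 4 lay far below the other Vehicle tumours for Ctrb1 (11.73), Try4 (10.10), Try5 (10.39), Try10 (10.57), Pnliprp1 (12.71), Pnliprp2 (7.84), Cuzd1 (7.02) and Erp27 (5.98). CSF1Ri 5 lay far above the other CSF1Ri tumours for Prss3 (9.11) and Rbpjl (6.39). CSF1Ri 1 lay far below them for Amy2a5 (8.27), by the brightest of its probes.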

How the results depend on the processing

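Under 21 alternatives, 0 acinar genes passed after adjustment, and the median log2 fold change of the acinar genes stayed negative, between -3.505 (dimmer arrays) and -1.36 (without CSF1Ri 1). The direction of each tested acinar gene was kept in all 620 recomputed values. The number of genes called among all genes was less stable. It was 21, and it became 12 with 75th percentile scaling in place of quantile normalization, 13 without the filter on dim probes, 45 with the tumour as a random block over all arrays, 1 within the dimmer arrays and 11 within the brighter arrays. Leaving out single tumours gave 11 to 34 genes. With the replicate number as a replicate block, 1 gene was called, and CSF1Ri 5, alone in its block, no longer entered the difference. That fit gave 0 acinar calls, a median of -3.21 and 30 genes at an unadjusted p under 0.05 (smallest adjusted p = 0.103). With the random block 20 acinar genes had an unadjusted p under 0.05, without Vehicle 4 it was 9, and without CSF1Ri 2 it was 1. The share of all genes under that p is not given for the alternatives. The random-block fit used 1 correlation (0.55) between repeat arrays for all genes. Acinar repeats differed by medians of 0.08 to 0.12 log2 units, so that fit counted them as partly separate. Without the filter on dim probes, 36 listed genes were tested, 33 had a negative value and 1 had an unadjusted p under 0.05. The genes added there had only dim probes. The highest of the 36 values was 0.23, for a Nr5a2 probe detected on 0 of 12 arrays. A slide block was not run, since the headers give no slide. Fold changes at the floor are understated, and a tumour without detection has only an upper bound.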

Other observations

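Outside the listed genes, the 10 genes with the largest within-group SD held 8 that were lowest in CSF1Ri 1 and highest in CSF1Ri 5 of the 9 tumours. These 8 were Reg2 and Reg3a, regenerating proteins of the pancreas, the kallikrein family genes Klk1b5, Klk1b26 and Klk1b27, and Gm5409, Gm10334 and Gm5771. Among them, Reg2 is also one of the other genes of acinar cells given above. Of the 31 listed genes tested, CSF1Ri 5 was above the highest Vehicle tumour for 19. Reg2 read 13.66, 13.26, 13.33 and 11.54 in Vehicle 1 to 4, and 5.09, 12.60, 11.39, 9.36 and 13.89 in CSF1Ri 1 to 5 (limma adjusted p = 0.806). The remaining genes of the 10 had their own order. H2-Ea, an MHC class II chain, had the largest SD of all genes (3.22). It read 4.92, 12.44, 12.08 and 6.99 in Vehicle tumours, and 5.65, 7.36, 12.05, 6.16 and 5.28 in CSF1Ri tumours. Slc4a1, the anion exchanger of red cells, was highest in Vehicle 1 (11.48) and lowest in Vehicle 2 (5.40).

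Lists of other tissue cells are given here as values. The fibroblast list mean was 8.65 to 9.29 in Vehicle and 8.66 to 9.40 in CSF1Ri tumours (14 genes), that of endothelium 7.31 to 7.67 and 7.15 to 7.93 (10 genes), and that of proliferation 8.37 to 8.67 and 8.37 to 8.55 (11 genes), with 0 genes past the test in each. The first fibroblast gene by p was Tagln (-0.62, limma adjusted p = 0.433). The erythroid list (5 genes) ran from 7.02 to 10.67 in Vehicle and from 6.85 to 9.39 in CSF1Ri tumours, with Vehicle 1 highest.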
